A study of Mus musculus with 6 samples.

Results

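Described here are 9 mouse genes that encode amino acid transporters of the plasma membrane: Slc7a1, Slc7a3, Slc7a5, Slc3a2, Slc1a4, Slc1a5, Slc38a1, Slc38a2 and Slc6a9. They were chosen by name, as transporters linked to the transcription factor ATF4, out of 38896 genes in the table, and the choice was made with their difference between DSS and control in these libraries in view. That difference is therefore given as a description and carries no test. All 9 were found, and all 9 passed the filter on low counts that left 19869 genes. The RNA came from fibroblasts cultured out of distal colon (mice 6 weeks old), grown for 2 passages and then kept for 24 h in control or inflammatory conditioned medium. Each of 3 mice (1716, 1717 and 1718) gave 1 control library and 1 library labelled DSS. The labels enter control and DSS as a genotype, whereas the series' design speaks of media. The DSS libraries were taken to be the cultures in inflammatory medium. Both groups thus share the animals, the tissue and the culture, and the sources used here give no strain, no sex and no account of how the media were made. With 1 library per mouse and group, the spread within a group mixes animals, cultures and library preparation.

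Cells take up amino acids through carriers that differ in substrate and in driving force. Some use the sodium gradient to concentrate an amino acid, and others are exchangers that trade one amino acid for another. ATF4 is a transcription factor whose protein is made in larger amounts when the kinases of eIF2 alpha, such as GCN2 (Eif2ak4), sense a shortage of amino acids or other stress. It binds a composite element of C/EBP and ATF half-sites in genes of amino acid uptake, amino acid synthesis and transfer RNA charging. Fibroblasts draw on these supplies to make collagen, which is rich in glycine and proline.

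Of the 9 transporters, 6 were lower in DSS than in control in each of the 3 mice (Slc7a5, Slc7a3, Slc1a4, Slc7a1, Slc1a5 and Slc38a2) and 2 were higher in each mouse (Slc6a9 and Slc3a2). Slc38a1 was higher in mice 1716 and 1717 and lower in mouse 1718. Among all genes tested, 28.5% were lower and 28.4% higher in all 3 mice. In the 6 genes that were lower, the 3 DSS libraries all lay below the 3 control libraries, which held for 16.5% of all genes tested. Groups that did not overlap in either direction made up 34.2% of all genes. Of the 2 genes that were higher, Slc6a9 alone had groups that did not overlap, and 17.7% of all genes had every DSS library above every control library. The choice of these genes used this contrast, so nothing is read from these counts. The log2 fold change of the 9 ran from -3.05 for Slc7a5 to 0.83 for Slc6a9 with a median of -0.62, against a median of 0.01 over all genes tested. Without the control library of mouse 1716, the log2 fold change of Slc38a1 was also below 0, at -0.07. In bulk RNA, fewer cells of a type cannot be told apart from less RNA per cell.

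Promoter sequence was at hand for 5 of the 9 genes (Slc1a4, Slc38a2, Slc7a1, Slc3a2 and Slc6a9), as windows of 300 bases from 250 before to 50 after an annotated start, from RefSeq on build GRCm38.p6. Of the 8 windows, 4 are shown. Those of Slc1a4, Slc38a2 and Slc7a1 are shown because each holds a match to one of the motifs searched. That of Slc3a2 is shown as the heavy chain that differed in the other direction from Slc7a5. Slc6a9, which was higher in DSS, also holds matches, in the windows of its downstream starts, which are not shown. The other window of Slc7a1 holds no match and is not shown. With windows chosen by their matches, no link is read between a match and the direction of the difference. All 4 windows shown contain the start of a curated transcript by its paired GENCODE transcript. So does the first window of Slc6a9, which held no match and is not shown. Capitals mark a match to either of 2 motifs, searched on both strands. TGATGNAA is the core of the composite C/EBP and ATF element, and TGACNNNGC is the core of the antioxidant response element that the transcription factor NRF2 binds. Matches of the 2 motifs did not overlap each other in these windows.
Slc1a4 (chr11:20332664-20332963, minus strand): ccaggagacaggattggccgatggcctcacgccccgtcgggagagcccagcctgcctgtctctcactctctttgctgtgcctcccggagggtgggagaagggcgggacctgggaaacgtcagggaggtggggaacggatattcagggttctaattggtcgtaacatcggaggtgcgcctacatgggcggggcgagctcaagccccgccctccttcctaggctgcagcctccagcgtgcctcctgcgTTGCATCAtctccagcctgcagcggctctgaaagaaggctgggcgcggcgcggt
Slc38a2 (chr15:96699679-96699978, minus strand): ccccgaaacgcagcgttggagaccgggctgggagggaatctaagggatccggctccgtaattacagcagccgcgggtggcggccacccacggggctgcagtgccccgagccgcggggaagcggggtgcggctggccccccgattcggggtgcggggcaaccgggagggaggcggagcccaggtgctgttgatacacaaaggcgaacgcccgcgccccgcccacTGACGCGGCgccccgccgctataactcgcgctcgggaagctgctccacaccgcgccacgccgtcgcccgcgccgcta
Slc7a1 (chr5:148399855-148400154, minus strand): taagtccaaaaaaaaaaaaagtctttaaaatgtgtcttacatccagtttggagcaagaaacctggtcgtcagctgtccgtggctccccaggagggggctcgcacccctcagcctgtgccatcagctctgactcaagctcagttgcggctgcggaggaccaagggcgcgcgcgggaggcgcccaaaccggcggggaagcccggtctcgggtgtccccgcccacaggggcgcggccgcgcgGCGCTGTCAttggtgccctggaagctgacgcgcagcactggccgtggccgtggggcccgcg
Slc3a2 (chr19:8713848-8714147, minus strand): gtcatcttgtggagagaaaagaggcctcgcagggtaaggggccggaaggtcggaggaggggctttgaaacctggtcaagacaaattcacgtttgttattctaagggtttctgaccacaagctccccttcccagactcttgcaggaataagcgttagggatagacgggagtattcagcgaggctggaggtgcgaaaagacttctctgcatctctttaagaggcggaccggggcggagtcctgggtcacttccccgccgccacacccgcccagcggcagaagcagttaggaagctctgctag
In Slc1a4 the capitals match TGATGNAA on the opposite strand and lie across the start, from base -4 to base 4. It was the single match to TGATGNAA among the 8 windows of the 5 genes, and 3.97% of all 32851 promoter windows hold one. The capitals in Slc38a2 (base -27 to -19) and in Slc7a1 (base -11 to -3, opposite strand) are matches to TGACNNNGC. That motif was found in 4 of the 8 windows, the others being the windows of the downstream starts of Slc6a9, and in 12.4% of all windows. The Slc3a2 window held neither motif. A match is a string of letters and not a shown binding site, and elements outside these windows, such as the one known from the first intron of Slc38a2, were not searched.

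Slc7a5 encodes LAT1, the light chain of an exchanger that imports leucine and other large neutral amino acids. It lies on chromosome 8 (121881146 to 121907686, GRCm38.p6; NCBI Gene 20539). Levels are given as CPM, the count of a gene scaled to the size of its library, which makes libraries of unequal depth comparable. Slc7a5 was at 51.8, 120.0 and 161 CPM in the control libraries of mice 1716, 1717 and 1718 and at 13.0, 12.8 and 14.3 CPM in their DSS libraries. The control libraries were spread over a 3.10-fold range, whereas the highest DSS library held 1.11 times the lowest. The groups did not overlap. Mouse by mouse, control exceeded DSS 3.998-fold in 1716, 9.35-fold in 1717 and 11.3-fold in 1718. The fitted log2 fold change was -3.05 ± 0.38 (SE, n = 3 per group), and the differences between the mice came mostly from how far the control libraries stood apart. A single RefSeq transcript is listed for Slc7a5, so its count does not depend on how reads were divided among isoforms.

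Slc3a2 (chromosome 19, 8706882 to 8723369; NCBI Gene 17254) encodes CD98 or 4F2hc, the heavy chain that brings LAT1 and several other light chains to the cell surface. It was at 103, 138 and 160.2 CPM in control and at 141, 186 and 190.1 CPM in DSS. Within each mouse the DSS library was the higher one, by 1.36, 1.34 and 1.19 times, but the groups overlapped because DSS 1716 lay below control 1718. The log2 fold change was 0.36 ± 0.18, and 0.37 ± 0.06 with the mouse as a further term of the fit (a block). The light chain and its heavy chain thus differed in opposite directions. The ratio of Slc7a5 to Slc3a2 reads was 0.5005, 0.868 and 1.004 in control and 0.0921, 0.0690 and 0.0751 in DSS, with no overlap of the groups.

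**Figure D1:**
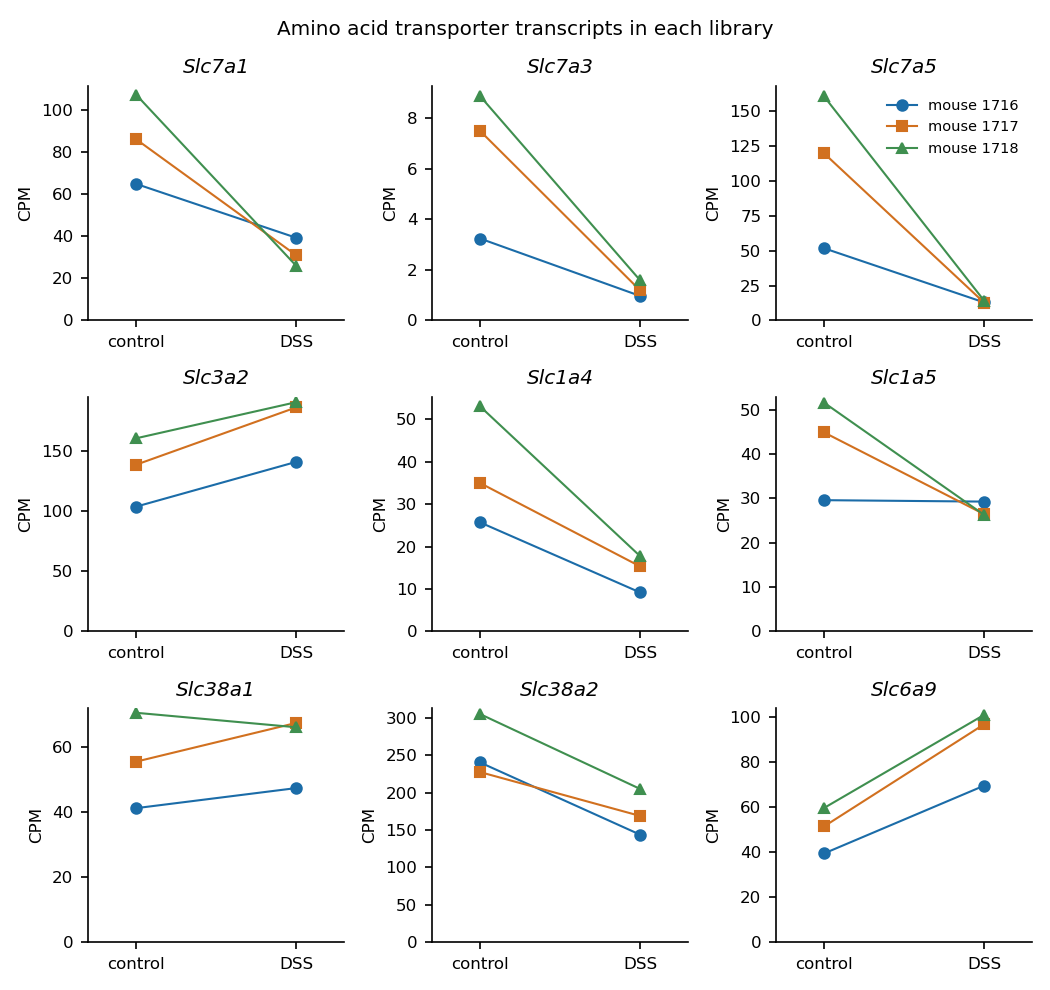
Level (CPM, linear axis from 0) of each of the 9 transporters in the control and DSS libraries, with a line joining the libraries of 1 mouse. Slc7a5 ends between 12.8 and 14.3 CPM in all 3 mice from control levels of 51.8 to 161, while the lines of Slc6a9 and Slc3a2 slope upwards.

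Slc7a1 and Slc7a3 encode CAT1 and CAT3, carriers of the cationic amino acids arginine, lysine and ornithine. Slc7a1 (chromosome 5, 148327410 to 148399904; NCBI Gene 11987) was at 64.8, 86.0 and 107 CPM in control and at 39.3, 31.0 and 26.0 CPM in DSS. The mouse with the highest control level, 1718, had the lowest DSS level, and mouse 1716 the reverse, so the within-mouse difference went from 1.65-fold in 1716 to 4.12-fold in 1718. The log2 fold change was -1.42 ± 0.21. Slc7a3 (chromosome X, 101079146 to 101090452; NCBI Gene 11989) was the least abundant of the 9, at 3.24, 7.51 and 8.89 CPM in control and 0.970, 1.19 and 1.59 CPM in DSS. These DSS values rest on 17, 21 and 28 counts against 64, 137 and 155 in control. The log2 fold change was -2.37 ± 0.41, and the groups did not overlap. Reads of the related carriers can be divided wrongly between them, and the 7 listed transcripts of Slc7a3 took shares that changed from library to library, so no isoform of Slc7a3 is described.

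Slc1a4 and Slc1a5 encode ASCT1 and ASCT2, sodium-dependent exchangers of small neutral amino acids. ASCT1 carries serine, alanine, cysteine and threonine, and ASCT2 is a main route for glutamine. Slc1a4 (chromosome 11, 20302180 to 20332713; NCBI Gene 55963) was at 25.7, 34.96 and 53.0 CPM in control and at 9.19, 15.3 and 17.8 CPM in DSS. Control exceeded DSS 2.80-fold, 2.28-fold and 2.99-fold in the 3 mice, a narrower range than for Slc7a5 or Slc7a1, and the log2 fold change was -1.43 ± 0.31. Slc1a5 (chromosome 7, 16781334 to 16798274; NCBI Gene 20514) was at 29.6, 44.9 and 51.6 CPM in control and at 29.3, 26.5 and 26.3 CPM in DSS. Its groups were kept apart by a margin of 0.32 CPM: control 1716 lay just above DSS 1716, whereas control exceeded DSS 1.70-fold in mouse 1717 and 1.96-fold in mouse 1718. The log2 fold change of Slc1a5 was -0.62 ± 0.19. The ratio of Slc1a4 to Slc1a5 reads was 0.868, 0.779 and 1.03 in control and 0.314, 0.579 and 0.675 in DSS, so the serine carrier was the more reduced of the pair in each mouse.

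Slc38a1 and Slc38a2 encode SNAT1 and SNAT2, which couple the uptake of glutamine, alanine and other small neutral amino acids to sodium. SNAT2 is the classic transporter of the adaptive response to amino acid shortage. Slc38a2 (chromosome 15, 96687392 to 96699728; NCBI Gene 67760) was at 240.2, 227 and 305 CPM in control and at 144, 169 and 205 CPM in DSS. The groups did not overlap, and control exceeded DSS 1.67-fold, 1.35-fold and 1.49-fold (log2 fold change -0.58 ± 0.16). Its neighbour Slc38a1 (chromosome 15, 96571418 to 96643438; NCBI Gene 105727) was at 41.1, 55.4 and 70.4 CPM in control and at 47.3, 67.3 and 66.0 CPM in DSS. These groups overlapped almost wholly. The log2 fold change was 0.11 ± 0.21, and 0.13 ± 0.08 with the mouse as a block. The ratio of Slc38a2 to Slc38a1 reads was 5.84, 4.10 and 4.33 in control and 3.04, 2.51 and 3.11 in DSS, with no overlap of the groups.

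Slc6a9 encodes GLYT1, a sodium- and chloride-coupled carrier that takes up glycine, and it was the transporter with the largest positive difference. It lies on chromosome 4 (117835258 to 117869305; NCBI Gene 14664). It was at 39.4, 51.3 and 59.5 CPM in control and at 69.4, 96.6 and 101 CPM in DSS. No DSS library lay below a control library. The DSS level was 1.76, 1.88 and 1.69 times the control level in the 3 mice, the narrowest spread of within-mouse differences among the 9 (SD 0.0765 on the log2 scale, against 0.796 for Slc7a5). The log2 fold change was 0.83 ± 0.18, and 0.83 ± 0.06 with the mouse as a block.

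**Figure D2:**
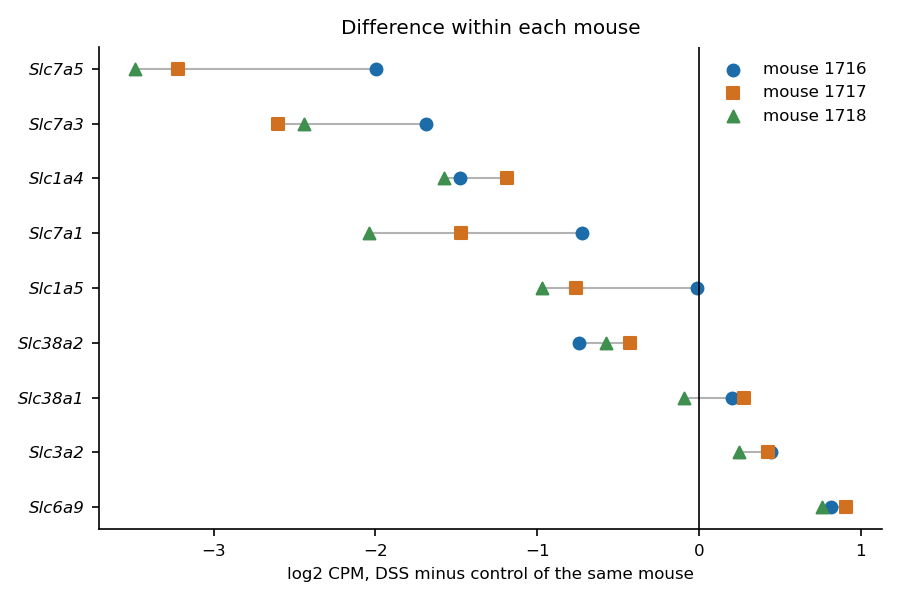
Difference in log2 CPM (prior count 1) between the DSS and the control library of the same mouse for each transporter, 1 symbol per mouse, with a grey line over their range. Mouse 1716 has the smallest difference for Slc7a5, Slc7a3, Slc7a1 and Slc1a5, whereas the 3 mice lie close together for Slc6a9, Slc3a2 and Slc38a2.

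The control libraries were ordered alike across the transporters. Control 1718 held the highest level of all 9, and control 1716 the lowest of 8, with Slc38a2 as the exception. The full order, 1716 below 1717 below 1718, was seen in 8 of the 9 and in 19.9% of all genes tested. Over all genes tested, control 1718 was the highest of the controls for 35.2% and control 1716 the lowest for 35.1%. The genes that were higher in DSS kept this order as much as those that were lower. In DSS the order was less uniform: DSS 1716 was the lowest for 6 of the 9 (33.8% of all genes) and the highest for Slc7a1 and Slc1a5. The highest control library exceeded the lowest 1.71-fold in the median transporter, against 1.15-fold in the median of the 12572 genes whose mean reached 5 CPM. These figures describe 3 libraries, and the 9 genes are not replicates of one another.

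To compare levels between genes, CPM was divided by transcript length for those RefSeq transcripts with a paired GENCODE transcript, which held 67.3 to 100% of the counts of a gene. The other counts were left out, which lowers genes by unequal amounts, so the order and ties below are approximate. The share kept was 76.9% for Slc3a2, 92.0% for Slc38a2, 70.8% for Slc6a9 and 100% for Slc7a5. In control, Slc3a2 (53.6 ± 13.6 CPM per kb, SD, n = 3) and Slc38a2 (51.9 ± 8.998) stood highest and did not differ beyond their spread. Slc7a5 followed at 31.5 ± 15.7 CPM per kb, and its highest library (45.7) came close to the lowest of Slc38a2 (46.0). Slc1a5, Slc7a1, Slc38a1, Slc6a9 and Slc1a4 lay between 9.65 and 11.7 CPM per kb with SDs of 2.23 to 3.54, so their order is not settled by these libraries. Slc7a3 was last at 1.99 ± 0.865 CPM per kb. In DSS the order of levels was Slc3a2 (73.4 ± 14.1), Slc38a2 (33.0 ± 7.54), Slc6a9 (18.7 ± 4.50), Slc38a1 (12.1 ± 2.57) and Slc1a5 (7.60 ± 0.171). Slc7a5 (3.797 ± 0.229), Slc7a1 (3.69 ± 0.678) and Slc1a4 (3.59 ± 1.12) came next and did not differ beyond their spread, and Slc7a3 was at 0.294 ± 0.189. The lowest Slc6a9 library in DSS lay below the highest one of Slc38a1, so these neighbours overlap as well. In every control library Slc7a5 lay above Slc1a5, and in every DSS library below it.

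**Figure D3:**
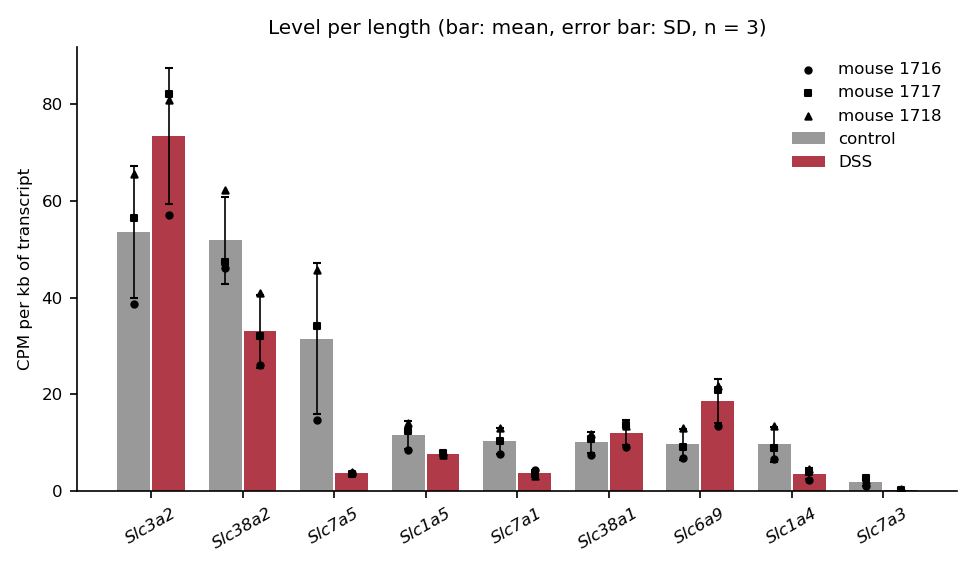
Level per length (CPM per kb of transcript, linear axis) in control (grey) and DSS (red), with bars for the mean, error bars for the SD of 3 libraries and 1 symbol per mouse. Slc3a2 is the highest gene in both groups, and Slc7a5 goes from 31.5 in control to 3.797 in DSS.

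The log2 fold change of the summed count of Slc38a1 was 0.11, while the shares of its estimated isoforms differed. The share of its counts assigned to the RefSeq transcript of 3183 bases was 34.3, 40.2 and 34.1% in control and 48.7, 49.8 and 47.5% in DSS, with no overlap. The longer curated forms, of 6966 and 7266 bases, together held the larger part of the rest, at 24.6 ± 4.51% and 24.3 ± 1.80% in control and 16.97 ± 4.99% and 16.6 ± 6.11% in DSS. For Slc6a9 and Slc3a2 the main transcript held 66.2 ± 8.66% and 69.4 ± 4.77% of counts in control and 72.5 ± 4.21% and 74.5 ± 3.79% in DSS. The shares of these main transcripts overlapped between the groups. A predicted transcript of Slc3a2 held 18.03, 16.4 and 17.03% of its counts in control and 14.6, 11.3 and 13.2% in DSS, with no overlap. One curated transcript of Slc7a1 was assigned 98.3, 515 and 562 counts in control and 1, 129.8 and 0 counts in DSS. Within control alone, the counts assigned to it thus differed between libraries far more than the summed counts of Slc7a1 did. Isoform shares are estimates from short reads and carry no test here. A predicted transcript of Slc7a1 also had shares without overlap, at 15.2, 13.5 and 12.9% in control and 19.8, 15.3 and 16.4% in DSS. So did a minor predicted one of Slc38a1, at 0, 0 and 0% in control and 2.70, 1.93 and 2.05% in DSS. The shares without overlap were picked from 35 listed transcripts of the 9 genes. How often shares do not overlap over all transcripts was not counted. For the levels of whole genes, which are another measure than shares, the groups did not overlap in 34.2% of all genes tested.

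Genes whose pattern over the 6 libraries was most like that of Slc7a5 were sought among 11510 named genes whose mean reached 5 CPM. The measure was the root mean square difference in log2 CPM after each gene was centred on its own mean. Trib3, a pseudokinase and target of ATF4, was the closest (0.19), followed by Aldh1l2 (0.29), an enzyme of mitochondrial folate metabolism, Anxa8 (0.35), the natriuretic peptide receptor Npr3 (0.50) and the lipoprotein receptor Vldlr (0.52). The median gene stood at 1.53. Trib3 was at 10.4, 26.6 and 47.4 CPM in control and at 3.31, 3.41 and 3.87 CPM in DSS, with the same steep order of controls and flat DSS level as Slc7a5. Among the 9 transporters themselves, Slc7a3 was the nearest to Slc7a5 (0.37), and Slc38a1 (1.55), Slc3a2 (1.67) and Slc6a9 (1.90) were further away than the median gene. Because the distance takes in the large group difference of Slc7a5, genes without a fall in DSS lie far from it by construction. The choice of the transporters used that same contrast. To the mean profile of the 8 transporters with at least 5 CPM, the closest genes were Cdr2l (0.05), the mitochondrial protease Lonp1 (0.08), the transfer RNA exporter Xpot (0.08), Rin1 (0.09) and the asparaginyl-tRNA synthetase Nars (0.09). That profile averages genes that were lower and genes that were higher, and the likeness is a description over 6 libraries that share 3 animals.

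**Figure D4:**
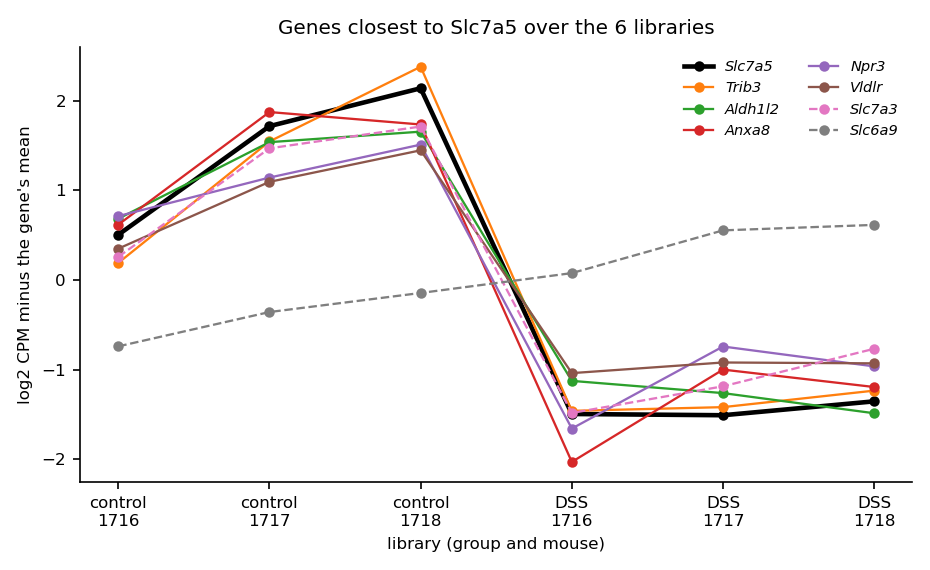
Log2 CPM (without prior count) of each gene minus its mean over the 6 libraries, for Slc7a5 (black), the 5 closest genes (solid lines) and the transporters Slc7a3 and Slc6a9 (dashed). Trib3 follows Slc7a5 through the 3 control and 3 DSS libraries, and Slc6a9 runs the other way between the groups.

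Of 28 other amino acid carriers of the plasma membrane tested, 4 rose (Slc7a11, Slc7a2, Slc43a2 and Slc43a1) and 1 fell (Slc7a8) by the quasi-likelihood test of edgeR, with the adjusted p required to be under 0.05. Of all genes tested, 13.3% passed, 7.37% upwards and 5.91% downwards. The other 23 did not pass, and the median was 0.24. With the mouse as a block, 7 rose and 4 fell, where 25.0% of all genes passed (12.3% upwards, 12.7% downwards). DESeq2 called 4 higher and 3 lower, with or without the block, but not all of these were the same genes. Slc43a1 passed in DESeq2 without the block (adjusted p = 0.0481) and not with it. Slc7a11, which encodes the cystine-glutamate exchanger xCT, needs the same heavy chain Slc3a2 and is a target of both NRF2 and ATF4, went from 149, 181 and 149.5 CPM in control to 439, 722 and 893 CPM in DSS. It rose by 2.10 ± 0.24 on the log2 scale (edgeR adjusted p = 0.00269). Slc7a2, a cationic carrier like Slc7a1, rose from 81.2 ± 13.5 to 179 ± 24.6 CPM (SD, n = 3; edgeR adjusted p = 0.00334). Slc43a2, a carrier of large neutral amino acids like LAT1, rose by 0.71 ± 0.12 (edgeR adjusted p = 0.0104), but the adjusted p was 0.113 without mouse 1717, 0.0532 without mouse 1718 and 0.0743 with curated transcripts alone. Slc43a1 passed in 0 of the 9 fits with a library or mouse removed (edgeR adjusted p = 0.0502 to 0.173), nor in DESeq2 with the block (0.0941). Of other light chains that pair with Slc3a2, Slc7a8 fell by 0.61 ± 0.15 (edgeR adjusted p = 0.0325), a call lost in 7 of those 9 fits (0.0524 to 0.206). Slc7a6 (-0.23 ± 0.07) and Slc7a7 (-0.60 ± 0.20) did not pass without the block (edgeR adjusted p = 0.0647 and 0.0981) and passed with it (0.0414 and 0.00159). In DESeq2, Slc7a6 did not pass (0.116 without and 0.166 with the block), whereas Slc7a7 passed both ways (0.0489 and 0.00140). Slc7a10 was at 0.228 CPM or less in every library and was not tested. Slc43a1, Slc7a6, Slc7a7 and Slc7a10 were singled out after their values were seen. The count called on this list was 3 without control 1717, DSS 1716 or DSS 1718 and 2 without mouse 1717 or mouse 1718. Of 8 lysosomal amino acid carriers, 4 rose (Slc38a7, Slc15a4, Slc15a3 and Mfsd12), with edgeR log2 fold changes of 0.52 to 0.83, and with the block 6 rose. Without mouse 1717 and without mouse 1718, 1 and 2 of them rose. With curated transcripts alone, Slc38a7 was at -0.16 ± 1.07, an estimate too wide to give a direction.

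Of 21 stress regulators and effectors of the ATF4 pathway tested, 11 fell and 2 rose (Gdf15 and Cebpb) by edgeR at an adjusted p under 0.05 (median -0.50), and with the mouse as a block 15 fell and 2 rose. Over all genes tested, 5.91% fell and 7.37% rose, and with the block 12.7% fell and 12.3% rose. Cebpb lost its call in 7 of the 9 fits with a library or mouse removed (edgeR adjusted p = 0.0558 to 0.187). Like Slc43a1, Cebpb was singled out after its values were seen. Atf4 itself fell from 99.8, 126 and 154 CPM to 76.8, 64.0 and 62.6 CPM (log2 fold change -0.90 ± 0.16; edgeR adjusted p = 0.0114). Trib3 fell by 2.99 ± 0.52 on the log2 scale (0.0106), and Asns, asparagine synthetase, fell by 1.86 ± 0.26 (0.00509). Ddit3, which encodes the stress factor CHOP, stood at 17.4 ± 6.13 CPM in control against 10.1 ± 0.650 in DSS, short of the threshold (edgeR adjusted p = 0.0788; 0.0343 with the mouse as a block, 0.0171 with DESeq2 and 0.0153 with DESeq2 and the block). Of 13 genes of serine, glycine, proline and mitochondrial folate synthesis 9 fell (median -1.46), and of 21 cytosolic aminoacyl-tRNA synthetases 11 fell (median -0.54), both by edgeR. With the mouse as a block, 9 synthesis genes fell and 1 rose, and 13 synthetases fell and 1 rose. Aldh1l2 fell from 112 ± 36.2 to 17.9 ± 2.23 CPM (edgeR adjusted p = 0.00151), and Phgdh, the first enzyme of serine synthesis, from 52.8 ± 16.0 to 13.1 ± 1.31 CPM (0.00247). Shmt2, which makes glycine from serine in mitochondria, fell from 77.4 ± 17.1 to 25.3 ± 1.65 CPM (0.00168). Gdf15, a secreted stress cytokine, rose from 3.81 ± 0.566 to 12.6 ± 1.85 CPM (0.0015). Fewer genes of these 3 lists were called when mouse 1717 or 1718 was left out, as over all genes, where 2639 calls became 649 and 664. Without mouse 1717, 0 ATF4 genes fell and 1 rose, 2 synthesis genes fell and 0 synthetases fell by edgeR, although 11, 9 and 12 genes of the 3 lists were lower at an unadjusted p under 0.05. Without mouse 1718, 2 ATF4 genes fell and 1 rose, 5 synthesis genes fell and 2 synthetases fell. Without control 1717, 7 ATF4 genes fell and 1 rose, and 6 synthetases fell. Leaving out control 1716 went the other way: 16 ATF4 genes of 22 tested fell and 1 rose, and 13 synthetases fell. In that fit 9 synthesis genes fell, and 1850 genes were called in all. Atf4, Trib3 and Asns lost their calls without mouse 1717 (edgeR adjusted p = 0.134, 0.118 and 0.0844) and without mouse 1718 (0.0799, 0.0623 and 0.0558), and Trib3 also with limma-voom (0.0517). Their log2 fold changes were -0.87, -3.00 and -1.78 without mouse 1717 and -0.69, -2.47 and -1.57 without mouse 1718.

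Of 14 eIF2 alpha kinases and partners, 0 passed by edgeR, with 4 at an unadjusted p under 0.05 and 0 called by DESeq2 or limma-voom. With the mouse as a block in edgeR 3 passed, where 25.0% of all genes tested did. Eif2ak4, the GCN2 sensor of uncharged transfer RNA, had a log2 fold change of 0.24 ± 0.07 (edgeR adjusted p = 0.0658; 0.0198 with the block, 0.0488 with library totals alone, 0.176 in DESeq2 with the block). For the related kinase gene Eif2ak3 it was -0.27 ± 0.11 (edgeR adjusted p = 0.160, 0.0226 with the block, 0.141 in DESeq2 with the block). Of 24 genes of the kinase complex mTORC1 and of its control, amino acid sensing included, 3 rose (Rragd, Flcn and Fnip2) and 1 fell (Rheb). With the block 7 rose and 1 fell. Over all genes tested, 13.3% passed, and 25.0% with the block, so nothing is read from these counts. Sesn2 was counted with the ATF4 genes and not here, unlike Sesn1 and Sesn3. It fell by 1.02 ± 0.17 (edgeR adjusted p = 0.00876, and 0.00111 with the block), a call lost in 2 of 9 fits with a library or mouse removed (0.0529 to 0.112). In fits with a library or mouse removed, Rragd lost its call in 8 of 9, Rheb in 7, Fnip2 in 6 and Flcn in 1. Rragd also lost it with limma-voom (0.0503), with no filter (0.0539), in DESeq2 with the block (0.0528) and with curated transcripts (adjusted p = 0.0720), and Rheb with limma-voom (0.0547), no filter (0.0675) and curated transcripts (0.101). Flcn had a log2 fold change of 0.66 ± 0.10 over all transcripts and 0.29 ± 0.10 with curated transcripts alone (edgeR adjusted p = 0.140). The count called was 1 without control 1717, control 1718, DSS 1717 or mouse 1718 and 0 without mouse 1717, where 5 had an unadjusted p under 0.05 by edgeR. Myc, which encodes a factor known to drive Slc7a5 and Slc1a5, stood at 25.1 ± 5.29 CPM in control against 31.9 ± 4.17 in DSS, short of the threshold (edgeR adjusted p = 0.229; 0.0135 with the block, 0.0632 in DESeq2 with the block).

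**Figure D5:**
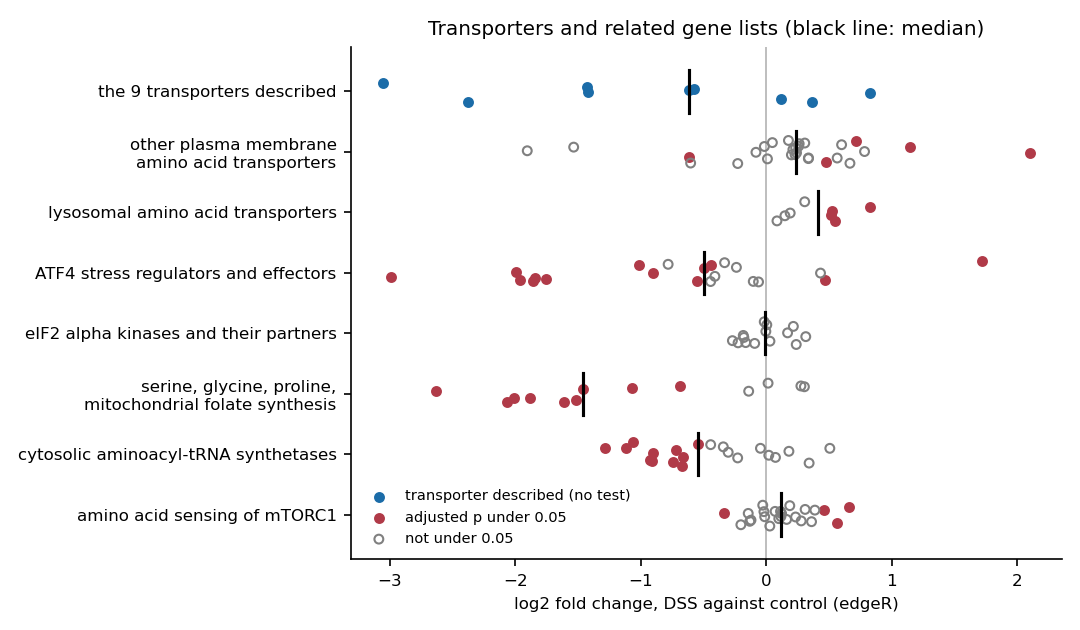
Log2 fold change of DSS against control (edgeR) for the 9 transporters (blue, without a test) and for the tested genes of 7 related lists, with filled red points for an adjusted p under 0.05, open points for the rest and a black line for the median. The median is -0.62 for the 9 transporters, -1.46 for serine, glycine, proline and mitochondrial folate synthesis and 0.24 for other plasma membrane carriers.

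Libraries held 17293680 to 19482938 estimated counts. Summed markers of fibroblasts were abundant in all libraries, at 37349 to 44062 CPM in control and 20128 to 24719 CPM in DSS, and 5 of the 9 fell and 1 rose by edgeR. Macrophage markers summed to 1925 to 2795 CPM in control and 1160 to 1969 CPM in DSS, with 4 of 10 lower and 1 higher by edgeR and none at 0. Markers of epithelium summed to 12.1 to 17.1 CPM in control and 4.27 to 6.36 CPM in DSS, with Epcam, Krt8, Krt18, Krt20, Vil1 and Cldn7 under 1 CPM in every library. Of the 4 epithelial markers tested, 2 were lower and 0 higher by edgeR. Smooth muscle and pericyte markers summed to 815 to 940 CPM in control and 711 to 844 CPM in DSS, with 1 of 6 higher and 2 lower by edgeR. Those of enteric glia summed to 95.8 to 323 CPM in control and 59.4 to 261 CPM in DSS and overlapped between the groups, with an over 3-fold range among the control libraries. Those of endothelium reached at most 22.2 CPM, those of T cells at most 9.19 CPM and those of mesothelium at most 4.22 CPM. The part of these cell types in the transporter differences was not tested.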

How the data were processed

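Per the submitters' processing notes, the authors quantified RNA-seq of 6 cultures with kallisto (builds GRCm38 and mm10; version and settings not given in the sources used here) and deposited estimated counts per RefSeq transcript, unscaled, with 1 column per library. Libraries were directional and depleted of ribosomal RNA, per the labels' protocols. Transcripts (120299) were summed per symbol to 38896 genes and rounded, and genes were filtered with edgeR's filterByExpr (minimum count 10, minimum total 15) and scaled by TMM. DSS was compared with control in edgeR (quasi-likelihood test; the only term was the group), with Benjamini-Hochberg adjustment over 19869 genes. The SE is the log2 fold change divided by the square root of F. The script was tested on simulated data. The members and lists were chosen with earlier results of these data known. The rule for named genes covered the 9 members, a panel of 9 genes, up to 4 genes with the smallest p in each of 7 lists, and the 5 genes nearest to each of the 2 reference profiles. The text describes a part of them, besides the genes said to be singled out.

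Libraries pair by mouse in their labels. Deviations from the group means correlated across genes with r = 0.34, 0.20 and 0.45 within mice 1716, 1717 and 1718, against -0.35 to 0.02 between mice. The deviations of a group cancel out by construction, so the values between mice are partly fixed by those within mice and are no separate evidence. The block was an alternative, beside DESeq2, limma-voom, other scalings, no filter, curated transcripts, ribosomal RNA entries left out, and leaving out libraries or mice. Tables and plots were made in Python 3.11.15 (matplotlib 3.10.9, pandas 2.3.3, numpy 2.4.6), and models were fitted in R 4.3.3 with DESeq2 1.42.0, limma 3.58.1 and edgeR 4.0.16.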

Additional observations from a re-analysis of the deposited data

How the results depend on the processing

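The signs of all 9 transporters were the same under the 9 alternatives that kept every library, and the median of their log2 fold changes was -0.63 to -0.58 (-0.59 with the mouse as a replicate block in edgeR). In the 9 fits with a library or mouse removed it was -0.87 to -0.45 (-0.82 without control 1716), and Slc38a1 alone changed sign (-0.07 without control 1716). Slc7a5 was at -3.40 to -2.68 and Slc6a9 at 0.68 to 0.98 in these fits. By construction they had fewer libraries and no block. With the mouse as a replicate block, 4965 genes were called in place of 2639, 11 other plasma membrane carriers, 3 eIF2 alpha genes and 8 mTORC1 genes. The calls of named genes that either block changed are given beside them. Curated transcripts alone gave 1508 genes (14984 tested), 1 eIF2 alpha gene and 2 mTORC1 genes, and Slc38a7 turned to -0.16 ± 1.07 (SE). Library totals alone gave 1 eIF2 alpha gene, and limma-voom and the fit with no filter gave 2 mTORC1 genes each. For these changes the cause was not tested. Leaving out libraries or mice, the called genes numbered 649 to 2418 in all (1349 without control 1717, 664 without mouse 1718), 2 to 5 other plasma membrane carriers, 1 to 4 lysosomal carriers, 1 to 18 ATF4 genes, 2 to 9 synthesis genes, 0 to 13 synthetases (6 without control 1717) and 0 to 4 mTORC1 genes. Depth limits Slc7a3 most, at 17 to 28 counts per DSS library.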
